A study of Mus musculus with 23 samples.

Results

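The complement and coagulation cascades of the liver were examined through 34 genes, 18 of complement and 16 of clotting and its control. Most encode plasma proteins, while Susd4 encodes a membrane protein. A member was measured where the platform annotation gave a probe set exactly 1 symbol, that of the gene. Where a gene had several such probe sets, the brightest by its mean log2 intensity over all arrays was used. Probe sets were found for 30 of the 34 genes, 16 of complement and 14 of coagulation, out of 19147 genes named on the array. C3, Cfd, F5 and Serpinc1 had no probe set with their symbol and are not analysed here. C6 and Masp1 had a second probe set each.

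Liver RNA came from 23 mice, each on an array of its own with 38385 probe sets. The groups were 6 female wild-type (WT) mice, 6 female mice with a knockout (KO) of P2ry13, 5 male WT mice and 6 male KO mice. P2ry13, which the labels call GPR86, encodes an ADP receptor, and the study compared livers with and without it. The sources used here do not give the strain, age, litter, the targeting of the allele or whether the deletion is limited to a cell type.

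Most complement and clotting proteins in blood are made by hepatocytes and secreted. The classical, lectin and alternative pathways of complement converge on C3 and then on C5, after which C6, C7, C8 and C9 assemble into the membrane attack complex, a pore in the target membrane. Clotting runs through a chain of serine proteases to thrombin and fibrin, held in check by anticoagulant proteins and undone by plasmin. Sex differences in the level of circulating terminal complement components are well known in mice.

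Intensities below are on the log2 scale, as levels or as differences between group means. A difference counted as called where the adjusted p of limma, by Benjamini-Hochberg over all 38385 probe sets, was under 0.05. P-values set a difference against the spread between these animals, pooled over the groups, and the number of arrays limits the precision. In bulk tissue, fewer cells of a type and less RNA per cell cannot be told apart. Levels are not compared between genes, since each probe set has its own response.

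The labels were checked first. P2ry13 lay at 6.03 to 6.42 in female WT and 5.06 to 5.22 in female KO, and at 5.80 to 6.34 in male WT and 5.07 to 5.34 in male KO. No KO array overlapped a WT array of its sex. Xist, the RNA of the inactive X chromosome, and the Y-linked Eif2s3y separated the sexes on every array. Alb, the albumin gene of hepatocytes, did not differ by a called amount between the sexes (0.07 in WT and 0.08 in KO, limma, adjusted p = 0.539 and 0.455). The 4 Y-linked probe sets, which have no transcript to detect in females, read 2.53 to 3.69 there, and Xist read up to 5.22 in males. The lowest value of any measured member on any array was 5.46.

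The clearest pattern among the members was a sex difference in genes of the membrane attack complex. C7, a further part of the complex, is not a member and was not measured. C6, C8a, C8b and C9 were lower in females than in males, in WT and in KO mice alike, while C8g did not pass. C6 was 8.66-fold lower in WT females and 11.9-fold lower in KO females. The other 3 genes were 1.92-fold to 2.74-fold lower. C6 binds the C5b fragment and starts the complex, C8a and C8b encode the chains of C8 that join the pore, and C9 polymerises to form the ring of the pore. These 4 proteins share the MACPF domain, whereas the C8 gamma chain encoded by C8g is a lipocalin that is not part of the pore wall.

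The promoter windows of these 4 genes are shown because their members moved in the same direction. Each window holds 300 bases, 250 before and 50 after the RefSeq gene start in assembly GRCm38.p6, in the direction of the gene. The windows are C6 at chr15:4726960-4727259 (plus strand), C8a at chr4:104876349-104876648 (minus strand), C8b at chr4:104766067-104766366 (plus strand) and C9 at chr15:6445096-6445395 (plus strand). Capitals mark matches, on either strand, to the motifs described next.
C6: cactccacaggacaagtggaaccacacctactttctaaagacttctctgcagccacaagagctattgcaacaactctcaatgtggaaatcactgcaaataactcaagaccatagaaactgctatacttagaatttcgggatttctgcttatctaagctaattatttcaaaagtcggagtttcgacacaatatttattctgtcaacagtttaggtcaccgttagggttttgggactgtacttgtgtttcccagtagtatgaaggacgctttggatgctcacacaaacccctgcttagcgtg
C8a: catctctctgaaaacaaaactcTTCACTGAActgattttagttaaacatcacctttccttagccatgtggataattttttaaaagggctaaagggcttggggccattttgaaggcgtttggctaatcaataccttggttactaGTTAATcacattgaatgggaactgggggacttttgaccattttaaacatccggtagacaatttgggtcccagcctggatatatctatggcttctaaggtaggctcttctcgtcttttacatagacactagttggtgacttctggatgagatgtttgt
C8b: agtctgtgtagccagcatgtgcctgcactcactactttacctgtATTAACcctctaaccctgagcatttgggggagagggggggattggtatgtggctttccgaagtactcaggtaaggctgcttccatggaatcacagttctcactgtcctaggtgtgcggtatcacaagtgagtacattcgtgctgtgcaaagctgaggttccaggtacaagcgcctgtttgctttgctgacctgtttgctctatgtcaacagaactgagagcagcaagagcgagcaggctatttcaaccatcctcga
C9: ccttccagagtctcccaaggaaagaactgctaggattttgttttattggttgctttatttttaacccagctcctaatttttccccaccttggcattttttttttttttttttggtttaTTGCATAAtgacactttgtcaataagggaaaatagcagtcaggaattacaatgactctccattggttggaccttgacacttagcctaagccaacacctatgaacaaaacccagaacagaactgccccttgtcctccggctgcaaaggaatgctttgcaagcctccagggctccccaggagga

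The motifs searched were TTCNNNGAA, the palindrome bound by STAT5-type factors, TTGCNNAA, a C/EBP-type motif, and GTTAAT, a core of HNF1 sites, each on both strands. C8a held TTCACTGAA at bases 23 to 31 of its window and GTTAAT at bases 144 to 149. C8b held the reverse complement ATTAAC at bases 45 to 50, and C9 held the C/EBP-type match TTGCATAA at bases 119 to 126. No match lay in the C6 window, and none of the matches printed overlaps another. Of the 30 measured members, 22 had a window in the RefSeq table, with 24 windows in all. The STAT5-type motif was in 5 of these 24 windows and in 8.29% of all 32817 windows of the table. For the C/EBP-type motif the numbers were 4 of 24 and 10.8%, and for GTTAAT they were 6 of 24 and 7.10%. Of the 8 windows of members called between the sexes in both genotypes, 1 held the STAT5-type motif, 1 the C/EBP-type motif and 2 GTTAAT. These are matches of letters and say nothing about binding.

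In male WT livers, C6 read 11.16, 10.97, 11.36, 10.98 and 11.31 in replicates 2 to 6. In male KO livers it ran from 10.81 through a median of 11.16 to 11.41. Female arrays lay far below: 7.68 to 8.35 in WT, with a median of 8.05, and 7.32 to 7.66 in KO, with a median of 7.59. No female array came near a male array. The females-minus-males difference was -3.11 in WT (SE 0.11, limma, adjusted p = 1.38e-17) and -3.58 in KO (SE 0.11, limma, adjusted p = 1.29e-19). The second probe set of C6 gave -3.26 and -3.66.

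C8a and C8b, neighbours on chromosome 4, encode the alpha and beta chains of C8. C8a read 12.50, 12.58, 12.74, 12.58 and 12.66 in male WT, and 11.37 to 11.82 in female WT, with a median of 11.65. In KO it lay at 12.63 to 12.97 in males, with a median of 12.80, and at 11.16 to 11.69 in females, with a median of 11.28. All females were below all males in each genotype, by -1.0 in WT and -1.45 in KO (SE 0.10 and 0.09, limma, adjusted p = 3.73e-08 and 3.52e-12). C8b read 12.21, 11.86, 12.29, 11.80 and 11.93 in male WT and 10.61 to 11.30 in female WT, with a median of 10.96. In KO males it lay at 11.79 to 12.29 around a median of 11.91, and in KO females at 10.54 to 10.997 around 10.81. Here too the sexes did not overlap, with differences of -1.02 and -1.17 (SE 0.12 and 0.11, limma, adjusted p = 8.41e-07 and 2.13e-08).

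C9, on chromosome 15 as C6 is, with 8 protein-coding genes between them in the RefSeq table, had the same direction. Male WT arrays read 13.04, 12.89, 13.05, 12.87 and 12.96, and female WT arrays 11.63 to 12.25, with a median of 12.06. KO males lay at 12.90 to 13.15 (median 13.04) and KO females at 11.70 to 12.04 (median 11.84). The sexes did not overlap, and the differences were -0.94 and -1.16 (SE 0.09 and 0.08, limma, adjusted p = 1.59e-08 and 5.17e-11). C8g lay at 13.04 to 13.32 over all WT arrays and at 13.05 to 13.24 over all KO arrays, so its groups overlapped. Its differences were -0.07 in WT (95% interval -0.19 to 0.05) and 0.00 in KO (-0.11 to 0.12; limma, adjusted p = 0.597 and 0.993). These intervals hold differences of up to about 0.2 and none of the size seen for the other 4 genes.

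**Figure D1:**
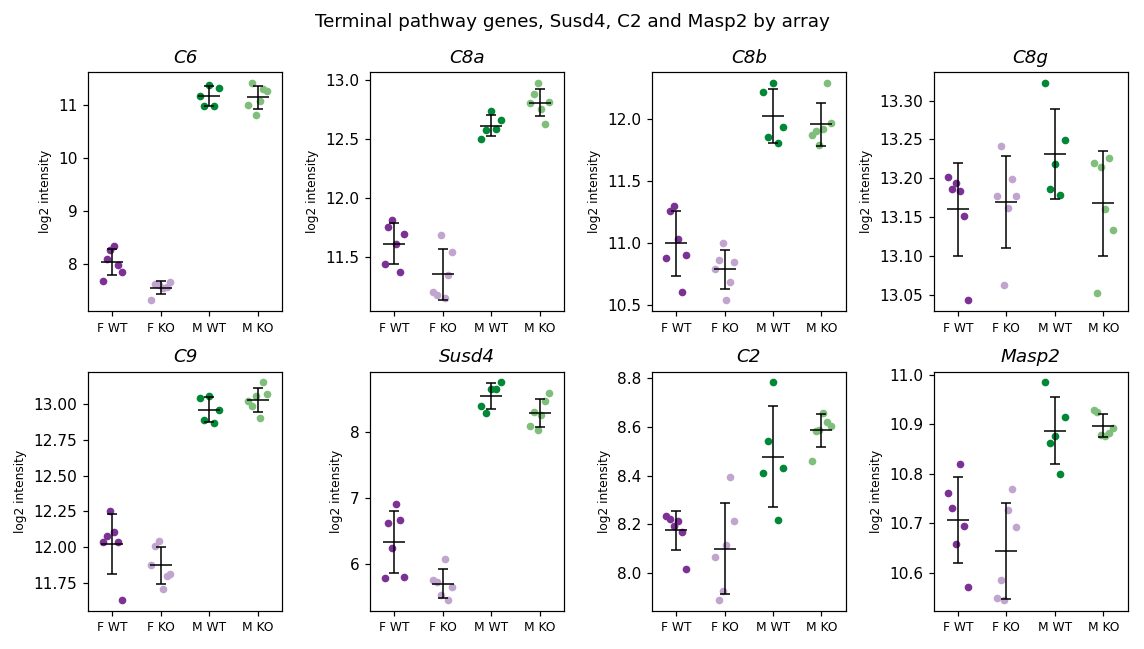
Log2 intensity of C6, C8a, C8b, C8g, C9, Susd4, C2 and Masp2, 1 point per array in each of the 4 groups. The group mean and SD are in black. C8g was not called between the sexes and Masp2 was called lower in females only in KO. C6 lies at 10.81 to 11.41 in males and 7.32 to 8.35 in females, with no overlap.

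Susd4 encodes a membrane protein with sushi domains that restrains complement activation, and its difference was next in size to that of C6. It read 8.39, 8.27, 8.64, 8.64 and 8.74 in male WT and 5.79 to 6.90 in female WT, with a median of 6.43. In KO it lay at 8.03 to 8.58 in males (median 8.27) and at 5.46 to 6.08 in females (median 5.69). The sexes stood apart in both genotypes, with Susd4 4.60-fold lower in WT females and 5.99-fold lower in KO females. The differences were -2.20 and -2.58 (SE 0.16 and 0.15, limma, adjusted p = 1.70e-10 and 1.16e-12). The 3 other measured regulators did not pass in either genotype. Cfi, the protease that cleaves C3b and C4b, read 0.15 in WT and -0.05 in KO, and C4bp, its cofactor for C4b, read 0.01 and -0.14. Vtn, vitronectin, which blocks membrane insertion of the terminal complex, read 0.15 and 0.01.

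In the lectin pathway, the mannose-binding lectins differed from each other. Mbl2, which encodes mannose-binding lectin C, a sugar-binding starter of the pathway, was higher in females, 1.59-fold in WT and 1.87-fold in KO. It read 12.20, 12.35, 12.30, 12.46 and 12.46 in male WT and 12.97 to 13.12 in female WT, with a median of 13.003. KO males lay at 11.99 to 12.30 (median 12.20) and KO females at 12.96 to 13.20 (median 13.08). The ranges did not overlap, and the differences were 0.67 and 0.91 (SE 0.07 in both, limma, adjusted p = 3.42e-07 and 1.78e-10). Mbl1, which encodes mannose-binding lectin A, gave -0.11 in WT (95% interval -0.33 to 0.11) and -0.10 in KO (-0.31 to 0.11; limma, adjusted p = 0.684 and 0.698).

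Masp2, the lectin-bound protease that cleaves C4 and C2, was lower in KO females, at 10.54 to 10.77 (median 10.64) against 10.88 to 10.93 (median 10.89) in KO males. The groups did not overlap, and the difference was -0.25 (SE 0.06, limma, adjusted p = 0.00783). In WT it read 10.99, 10.86, 10.88, 10.80 and 10.92 in males and 10.57 to 10.82 in females (median 10.71), groups that overlapped. That difference, -0.18, did not pass (95% interval -0.31 to -0.05, limma, adjusted p = 0.102). Masp1, a further protease of the lectin complexes, gave -0.15 and -0.08 and did not pass. Its second probe set, with a mean of 4.19 within the range Xist read in males, gave 0.18 and 0.28 and did not pass.

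C2, the protease subunit of the classical and lectin convertase, was lower in females of both genotypes, but weakly in WT. It read 8.41, 8.54, 8.78, 8.22 and 8.43 in male WT and 8.02 to 8.24 in female WT (median 8.20), and those ranges overlapped. In KO it lay at 8.46 to 8.66 in males (median 8.60) and 7.89 to 8.39 in females (median 8.09), without overlap. The differences were -0.30 and -0.48 (SE 0.09 and 0.08, limma, adjusted p = 0.0493 and 0.000356). The WT call ended in 19 of 23 fits that left out an array, where the largest adjusted p was 0.174 (limma). It stood without female KO replicate 2, 3 or 5 or male WT replicate 5. Cfb, which encodes the matching subunit of the alternative pathway and lies next to C2 on chromosome 17, did not pass, with 0.20 in WT and -0.01 in KO (limma, adjusted p = 0.152 and 0.964). C4b, the other part of the classical convertase, gave 0.16 and -0.27 (limma, adjusted p = 0.383 and 0.0705). Its probe set may also read the close paralog C4a, so its values are uncertain.

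Among the 14 coagulation members, F7 was called higher in females of both genotypes and F13b in KO females. F7, the vitamin K-dependent protease that starts clotting with tissue factor, read 9.24, 9.15, 9.23, 9.20 and 9.12 in male WT and 9.59 to 9.77 in female WT, with a median of 9.66. KO males lay at 9.10 to 9.31 (median 9.25) and KO females at 9.45 to 9.79 (median 9.71). Females were above males without overlap, 1.40-fold in WT and 1.37-fold in KO. The differences were 0.48 and 0.45 (SE 0.06 in both, limma, adjusted p = 1.39e-05 and 1.25e-05). F10, the protease of the prothrombin-cleaving complex and the next gene on chromosome 8, gave 0.09 and 0.07 and did not pass. Proz, which follows F10 there and encodes a cofactor of F10 inhibition, gave 0.10 and 0.04 and did not pass either.

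F13b, the carrier subunit of the fibrin-crosslinking factor XIII, lay at 11.31 to 11.41 in KO females (median 11.37) and 11.11 to 11.26 in KO males (median 11.16). These ranges did not overlap, and the difference of 0.20 was called (SE 0.06, 1.15-fold, limma, adjusted p = 0.0320). The call ended in 9 of 23 fits that left out an array, those without female KO replicate 1, 2, 3, 4 or 5 or male KO replicate 2, 3, 4 or 5 (limma, adjusted p up to 0.0744). In WT, where male arrays read 11.28, 11.30, 11.34, 11.13 and 11.16, the difference was 0.11 and did not pass (limma, adjusted p = 0.350).

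The other 12 coagulation members did not pass in either genotype. F11, a protease of the contact pathway, read lowest in females, at -0.27 in WT and -0.30 in KO (limma, adjusted p = 0.152 and 0.0884). Its neighbour Klkb1, plasma prekallikrein, gave 0.08 and -0.04. F12, the contact activator, gave -0.06 and -0.07, and Kng1, kininogen, gave 0.13 and 0.14. F2, prothrombin, gave 0.09 in both genotypes without passing (limma, adjusted p = 0.440 and 0.393). F9, the X-linked hemophilia B protease, gave 0.11 and 0.11. The anticoagulants Proc, protein C, Pros1, protein S, and Serpind1, heparin cofactor II, lay between -0.14 and 0.12. Plg, plasminogen, gave 0.15 and 0.05, and Serpinf2, its inhibitor antiplasmin, gave 0.09 and 0.02.

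**Figure D2:**
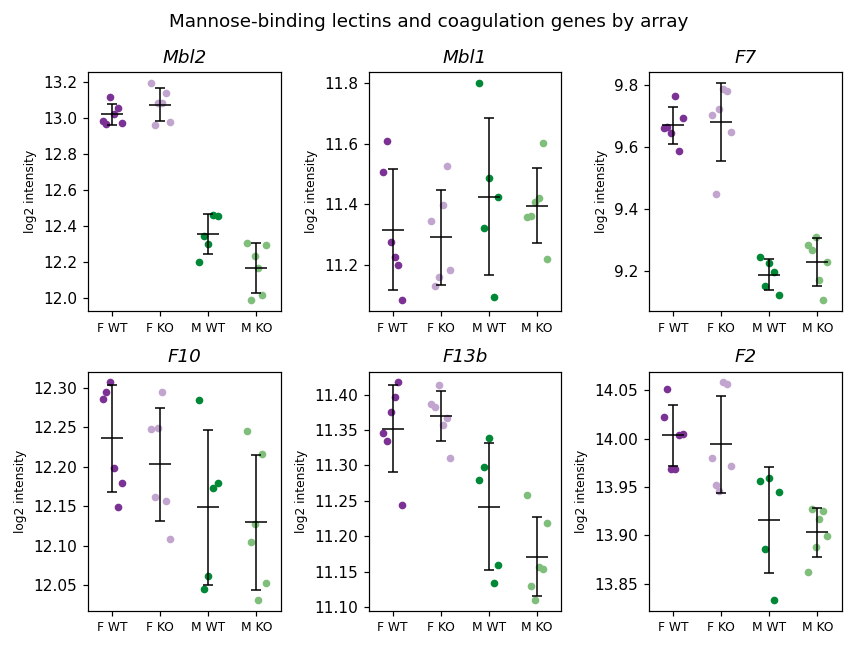
Log2 intensity of Mbl2, Mbl1, F7, F10, F13b and F2, 1 point per array in each of the 4 groups, with the group mean and SD in black. Mbl2 and F7 were called higher in females in both genotypes and F13b in KO, while Mbl1, F10 and F2 were not called. Mbl2 lies at 12.96 to 13.20 in females and 11.99 to 12.46 in males.

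In all, 8 of 30 measured members were called between the sexes in WT, 6 lower and 2 higher in females, where 4.25% of all probe sets were called, 1.71% lower and 2.54% higher. In KO, 10 of 30 were called, 7 lower and 3 higher, where 4.85% of all probe sets were called, 1.64% lower and 3.21% higher. The ranges of the sexes did not overlap for 10 members in WT, against 3.86% of all probe sets, and for 12 in KO, against 3.38%. Among these, Cfi, F2 and Plg in WT and Kng1 and F2 in KO were not called, with females above males in each. Complement genes made up most of the calls: 7 of 16 in WT and 8 of 16 in KO, against 1 of 14 and 2 of 14 coagulation genes. The members were chosen with earlier results of these data known. These counts therefore describe the list and do not test whether it differs from all probe sets. The median difference over the 30 members was 0.08 in WT and -0.04 in KO, beside -0.01 and -0.02 over all probe sets. A plain analysis of variance without adjustment gave 18 members in WT and 16 in KO, where 14.9% and 15.6% of all probe sets passed. Each of the 8 members called in WT was also called in KO with the same sign. Apart from C6, C8a, C8b, C9, Susd4, C2, Mbl2 and F7, members differed by less than 0.3 in both genotypes.

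**Figure D3:**
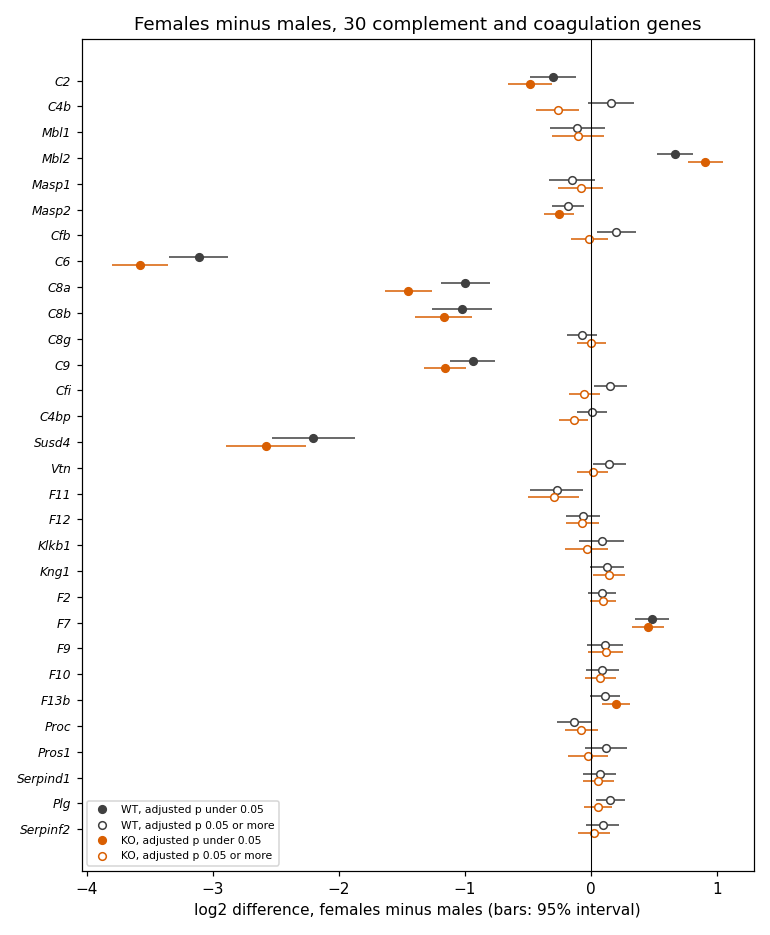
Females-minus-males log2 difference of each of the 30 measured members in WT and KO mice, with 95% intervals from limma. C6 and Susd4 lie farthest below 0, at -3.11 and -2.20 in WT, and Mbl2 farthest above 0.

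The P2ry13 knockout was then compared with WT within each sex. No member was called in females or in males, and none for the average of both sexes or for the difference between the sexes (limma, adjusted p at least 0.154, 0.494, 0.260 and 0.869). Over all probe sets, 0.0547% were called in females, 0.0313% in males, 0.0808% for the average and 0.0104% for the difference. At an unadjusted p under 0.05, limma gave 3 of 30 members in females, 5 in males, 3 for the average and 5 for the difference, where 5.87%, 6.14%, 6.91% and 5.14% of all probe sets passed. A plain analysis of variance without adjustment gave 3, 6, 4 and 9 members, where 5.23%, 5.92%, 6.6% and 5.22% of all probe sets passed. It called no member after adjustment.

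In females, C6 and Susd4 had the smallest p. C6 read 7.68 to 8.35 in WT and 7.32 to 7.66 in KO, so that the highest KO array stood below the lowest WT array. The KO-minus-WT difference was -0.48 (SE 0.11, 95% interval -0.70 to -0.26, limma, adjusted p = 0.154). With adjusted p it was called in a single fit, without female WT replicate 1 (limma, adjusted p = 0.0385), while the second probe set gave -0.46 with groups that overlapped (limma, adjusted p = 0.580). Susd4 read 5.79 to 6.90 in WT and 5.46 to 6.08 in KO, ranges that overlapped, with a difference of -0.64 (SE 0.15, 95% interval -0.95 to -0.32, limma, adjusted p = 0.285). C6 was the only member whose female groups did not overlap, against 0.229% of all probe sets. Eif2s3y, a male transcript, lay at 2.72 to 3.45 in female WT and 2.80 to 3.01 in female KO, and its part in these values was not tested.

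The remaining female values were smaller. C8a read -0.26 (95% interval -0.45 to -0.07) and was not called (limma, unadjusted p = 0.00809, adjusted p = 0.789). C8b read -0.21, C9 -0.15 and C8g 0.01. The coagulation members lay between -0.16 (F11) and 0.09 (Kng1), with 95% intervals that together ran from -0.36 to 0.21. Of the 30 members, 11 had positive values, with a median of -0.02, and quantile normalization turned the sign of 5 of them and equal array medians that of 4. The 95% intervals, which are not adjusted for the number of probe sets, reached 0.10 to 0.32 to each side. A call took more than that, as C6 at -0.48 and Susd4 at -0.64 were not called.

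In males, C4b, whose product C4 forms the classical convertase with C2, read highest relative to WT. It gave 9.07, 8.98, 9.27, 9.04 and 9.20 in WT and 9.31 to 9.68 in KO (median 9.35), with every KO array above every WT array. The difference of 0.31 did not pass (SE 0.09, 95% interval 0.13 to 0.49, limma, adjusted p = 0.494). The same held for C4bp, at 11.999 to 12.19 in WT and 12.19 to 12.32 in KO, with a difference of 0.15 (limma, adjusted p = 0.720). These were the 2 members without overlap in males, against 0.555% of all probe sets. Of a list of 12 acute phase genes, which the liver raises in inflammation, 11 were measured. All 11 read higher in male KO, with a median of 0.31 and none called. Their summed linear intensity ran from 41579 to 44686 in male WT and from 44397 to 63245 in male KO, and their part in the values of C4b and C4bp was not tested.

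C6 read -0.02 in males, against -0.48 in females, and Susd4 -0.26 against -0.64. Mbl2 read -0.19 in males (95% interval -0.33 to -0.04, limma, adjusted p = 0.719) and 0.05 in females. Over the 30 members, 18 were positive in males, with a median of 0.05. The coagulation members lay between -0.14 (F11) and 0.18 (Pros1), with 95% intervals that together ran from -0.35 to 0.35. Cfi lies on chromosome 3, as P2ry13 does, with 640 protein-coding genes between them. It gave -0.07 in females and 0.14 in males and did not pass (limma, adjusted p = 0.918 and 0.794).

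**Figure D4:**
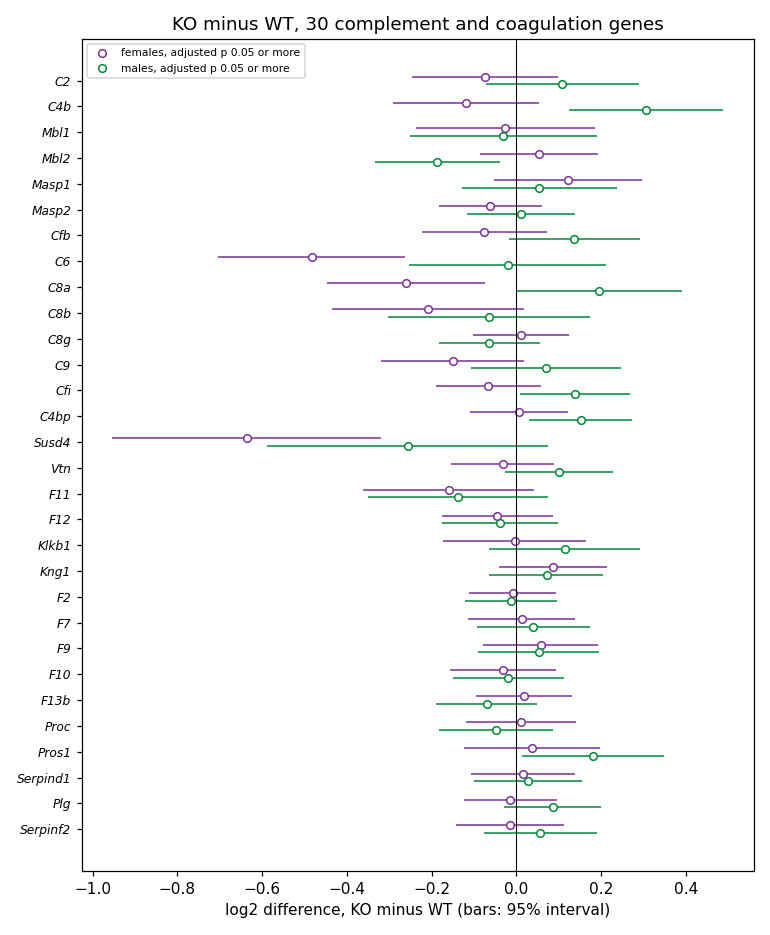
KO-minus-WT log2 difference of each of the 30 measured members in females and males, with 95% intervals from limma. No member was called in either sex, with values from -0.64 to 0.12 in females and from -0.26 to 0.31 in males.

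How far the KO effect in females departed from that in males was tested as an interaction. It was -0.46 for C6, -0.45 for C8a, -0.43 for C4b and 0.24 for Mbl2, with unadjusted limma p of 0.00650, 0.00190, 0.00170 and 0.0220. None passed after adjustment (limma, adjusted p = 0.960, 0.869, 0.869 and 0.962). For C8a the values were -0.26 in females and 0.19 in males. Of the 30 members, 9 had positive values, with a median of -0.07, beside 0.00 over all probe sets. For the average of both sexes, Susd4 read -0.45 and C6 -0.25 without passing (limma, adjusted p = 0.260 and 0.515).

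Most members varied little within groups. The pooled within-group SD had a median of 0.09 over the 30 members and of 0.15 over all probe sets. Susd4, C8b, C6, Mbl1, F11 and C8a lay above the latter. The members were bright, at percentiles 82.6 (Susd4) to 99.9 (F2) of mean intensity, and spread was not compared at equal brightness. F2 had the lowest, at 0.04, and Plg 0.06. Susd4 had the highest, at 0.30, followed by C8b at 0.21 and C6 at 0.20, which also differed between the sexes. For Susd4 the SD was 0.47 in female WT and 0.20 to 0.22 in the other groups. Female WT replicate 6 deviated most from its group over the members, by 0.133 on average, against 0.057 to 0.107 for the other arrays.

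**Figure D5:**
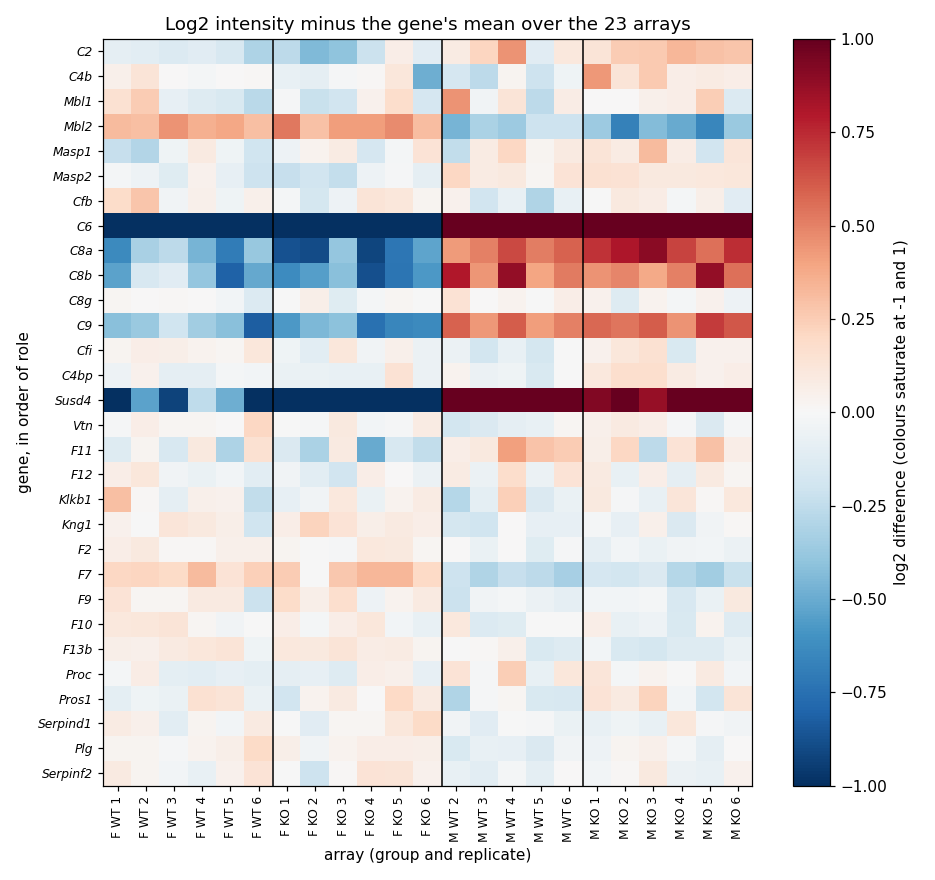
Deviation of each of the 30 measured members from its mean over all arrays, in log2 units, with a column for each of the 23 arrays ordered by group and colours saturating at -1 and 1. C6, Susd4, C8a, C8b and C9 are high in the male arrays and low in the female arrays of both genotypes. The log2 intensity of C6, before its mean of 9.4 was subtracted, ran from 7.32 to 11.41.

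The other genes of the cascades gave a background for these values. Of 57 listed, 46 were measured. None was called in a KO comparison by limma. Between the sexes in WT, 7 were called higher in females and 1 was called lower, beside 2.54% and 1.71% of all probe sets. In KO, 9 were called higher and 3 lower, beside 3.21% and 1.64% of all probe sets. The gene called lower in both was Hc, which encodes complement C5, the source of the C5b that C6 binds. It gave -0.34 in WT and -0.59 in KO (limma, adjusted p = 0.00854 and 2.64e-06). In KO, C1ra, a protease of the C1 complex, gave -0.27 and Clu, clusterin, an inhibitor of the terminal complex, gave -0.33 (limma, adjusted p = 0.00933 and 0.00276). Higher in females of both genotypes were Cfp, properdin, which stabilises the alternative convertase (0.86 and 0.85), Hgfac, a protease related to F12 (0.54 and 0.39), Fcna, a ficolin of the lectin pathway (0.40 and 0.37), and Tfpi, the inhibitor of the tissue factor pathway (0.34 and 0.36). Their adjusted p by limma lay between 2.03e-05 and 0.00659. Kng2, the paralog next to Kng1 on chromosome 16, gave 0.34 in WT and 0.24 in KO (limma, adjusted p = 0.0145 and 0.0759). Its sex difference in KO minus that in WT was -0.09 and did not pass (95% interval -0.32 to 0.14, limma, adjusted p = 0.996). Kng1 and Kng2 are close copies, so their probe sets may share signal.

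Markers of other liver cells also differed between the sexes. Over all probe sets, 2.54% were called higher in females in WT and 3.21% in KO. Of 9 measured markers of Kupffer cells, the macrophages of the liver, all read higher in females, with 7 called in WT and 8 in KO. The summed linear intensity of these markers ran from 5803 to 7189 in female WT and from 4034 to 5562 in male WT. In KO it ran from 6044 to 7966 in females and from 4078 to 5702 in males. Among them, C1qa, C1qb and C1qc encode the subunits of C1q, the recognition protein of the classical pathway, and gave 0.48, 0.53 and 0.41 in WT (limma, adjusted p = 0.00939, 0.00924 and 0.0358). Of the 11 acute phase genes, 10 read higher in females in WT and 6 in KO, with 6 and 3 of these called. Alas2, the heme synthesis gene of red cell precursors, gave -2.72 and -2.76, while Slc4a1, the red cell anion exchanger and the other measured gene of that list of 5, gave -0.17 and -0.20 and did not pass (limma, adjusted p = 0.308 and 0.165). The 4 measured hepatocyte markers, Alb among them, were not called. Another of them, the fibrinogen gene Fgb, is also among the other coagulation genes listed. The summed intensity of the 4 ran from 52926 to 56657 in female WT and from 50153 to 52954 in male WT. In KO it ran from 52668 to 56334 in females and from 50323 to 54747 in males. The part of these cell types in the sex differences of the members was not tested.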

How the data were processed

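Liver RNA of 23 mice was amplified to biotin-labelled cRNA, per the labels' protocols. The authors deposited, for each probe set, an intensity on the linear scale from RMA, per the submitters' processing notes. The RMA version and settings used were not given in the sources used here. These intensities were converted to log2, with array medians of 19.5 to 21.1 in linear units and no further scaling. Correlations between arrays lay between 0.983 and 0.995, and the most similar pair shared 0.594% of values, so no array was taken as a duplicate. Groups and replicate numbers came from the titles.

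Gene names of probe sets come from the platform annotation. With limma 3.58.1 (R 4.3.3), group means were estimated over the 23 arrays together, leaving 19 degrees of freedom beside 7.61 from the prior of eBayes, with Benjamini-Hochberg adjustment over all 38385 probe sets and a threshold of 0.05; intervals are 95% intervals of this fit. The fit was tested on simulated data. Members and gene lists were chosen with earlier results of these data known. All members could be named; of other pathway genes, up to 4 with the smallest p in each direction and paralogs of members. Promoter windows are from RefSeq (GRCm38.p6). The array names no assembly, so no gene coordinates other than these windows are printed. The alternatives were quantile normalization, equal array medians, a filter on dim probe sets, array weights, an intensity trend, a replicate block, the compared groups alone, a plain analysis of variance, a minimum change, other probe set choices and leaving out each array. Figures were drawn with matplotlib 3.10.9.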

Additional observations from a re-analysis of the deposited data

Results flagged for a closer look

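For each member in each group, an array was listed where its distance to the nearest other array was large against the whole range of the group (Dixon's criterion). Of 120 such sets of values, each of 1 member in 1 group, 12 met it. For a single set, chance alone gives about 1 in 20. The sets share the same arrays, so the count cannot be weighed against that rate. Female WT replicate 6 accounts for 5: it read lowest for C2 (8.02), C8g (13.04), C9 (11.63) and F9 (10.86), and highest for Plg (13.93). Female KO arrays account for 4, with C6 at 7.32 in replicate 1, C4b at 8.76 in replicate 6, Plg at 13.70 in replicate 2, all lowest, and C4bp at 12.30 in replicate 5, highest. Male KO arrays account for 3, with C2 lowest at 8.46 in replicate 1, Serpind1 highest at 12.11 in replicate 4, and C8b highest at 12.29 in replicate 5. No cause was tested.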

How the results depend on the processing

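The sex differences of C6, C8a, C8b, C9, Susd4, Mbl2 and F7 stayed called with the same sign in both genotypes under all alternatives run. The number of called members between the sexes lay between 7 and 8 in WT and between 9 and 10 in KO when single arrays were left out. The WT call of C2 and the KO call of F13b ended in other settings as well, 5 and 4 of them. A minimum change of 20% ended the KO call of Masp2, which changed by 1.19-fold. Quantile normalization added Masp2 in WT, and C4b and C4bp in KO, and ended F13b there. C4b in KO was also added by the filter on dim probe sets, by array weights and without female KO replicate 5. F11 was added in KO without female KO replicate 3 or male KO replicate 3, and Plg in WT by the intensity trend. A plain analysis of variance without adjustment, the design text's test, gave 3 members for KO in females, 6 in males, 4 for the average, 9 for the difference of effects, 18 for the sexes in WT and 16 in KO, where 5.23%, 5.92%, 6.6%, 5.22%, 14.9% and 15.6% of all probe sets passed. KO counts were 0 in every other setting, except that leaving out single arrays gave 0 to 1 in females, the 1 being C6 without female WT replicate 1. With the replicate number as a replicate block, the counts were 0 for each KO comparison, 7 for the sexes in WT (C2 lost, limma, adjusted p = 0.0866) and 9 in KO (F13b lost). Same-numbered arrays correlated over 0.1 in 3 of 33 pairs (-0.171 to 0.215), so the numbers were not taken to pair animals. With 5 to 6 arrays per group, differences larger than the reach of the intervals to each side could still go uncalled after adjustment.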
